A study of Homo sapiens with 6 samples.

Results

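The set of 10 metabolic and xenobiotic nuclear receptors was followed in Huh7 cells, a human hepatoma line, after knockout of the RNA-binding protein gene HNRNPA2B1. They were chosen by symbol, leaving aside the bile acid pair NR1H4 and NR0B2. All 10 were found among the 25202 rows of the count table and were among the 16331 rows that passed the filter on low counts. RNA was sequenced from 2 groups of 3 libraries each. The knockout libraries came from Huh7 cells carrying a CRISPR guide against HNRNPA2B1, and the control libraries from Huh7 cells carrying the guide named sgNC, labelled wild type. No drug or ligand is named for either group, and the labels do not say whether the knockout line is a clone or a pool, nor whether the libraries came from separate cultures. Each p-value thus reflects variation among the sequenced libraries alone, and that variation may be purely technical.

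Nuclear receptors are transcription factors that bind small lipophilic molecules and DNA at the same time. PPARA, PPARD and PPARG sense fatty acids, NR1H3 and NR1H2 (LXR alpha and beta) sense oxysterols, and NR1I2 (PXR) and NR1I3 (CAR) sense drugs and other foreign compounds. All of these bind DNA as a pair with a retinoid X receptor such as RXRA. NR5A2 (LRH-1), which acts in bile acid and cholesterol handling, and ESRRA, an orphan receptor of mitochondrial genes, bind DNA without RXRA. Most of these receptors recognise variants of the hexamer AGGTCA, singly or as repeats.

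Total counts were 36809274, 32702480 and 34273448 in the knockout libraries and 38870244, 32690070 and 32517757 in the control libraries. HNRNPA2B1 itself had 229 ± 8.30 CPM (counts scaled to library size and TMM factors) in knockout and 1214 ± 221 CPM in control libraries (SD, n = 3 each), 5.29-fold lower in knockout. The first principal component, 63.7% of the variance, separated the groups, and the second, 13.1%, set control replicate 3 at 51.3 apart from the other control libraries at -29.1 and -25.3. Differences were called at an adjusted p below 0.05 in edgeR's quasi-likelihood test, adjusted by Benjamini-Hochberg over all 16331 rows. Of 14 hepatocyte markers, 13 were lower in knockout and TTR was not called. Their summed level was 11499 to 12454 CPM in knockout and 19254 to 22888 CPM in control libraries, and its part in the results below was not tested. In bulk RNA, fewer cells of a type and less RNA per cell cannot be told apart. Of 21 markers of other cell types, 2 were called higher and 2 lower among the 11 tested. Their summed level was 484 to 487 CPM in knockout and 511 to 687 CPM in control libraries. The leukocyte and Kupffer cell marker CD68 had 138 ± 5.80 CPM in knockout and 229 ± 47.6 CPM in control libraries, and was called lower. Markers of the same group went the other way at very few counts. PTPRC had 25 counts in knockout and 0 in control libraries, CD163 had 11 and 0, and neither was tested. Of the 21, only the stellate marker LRAT and the adipocyte marker ADIPOQ had 0 counts in every library. Another adipocyte marker, PLIN1, had 37 counts in knockout and 66 in control libraries.

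None of the 10 was called higher and 2 were called lower, PPARA and NR1H3. Over all rows tested, 21.1% were called higher and 19.0% lower, 40.1% in all, so the count of lower receptors sits near that of the table. DESeq2's test likewise called 0 of the 10 higher, and in edgeR 0 were higher at an unadjusted p below 0.05. Knockout libraries lay wholly below control libraries for 4 receptors, PPARA, PPARG, NR1H3 and RXRA, and wholly above for 0. Over all rows, knockout lay wholly below in 24.8% and wholly above in 29.6%, 54.3% together. The median log2 fold change, knockout over control, was -0.14 over the receptors and 0.05 over all rows. Scaling set the split of calls: 52.7% of called rows were higher under TMM, 64.4% when scaled by the upper quartile and 72.1% when scaled by library size only, which put the median of all rows at 0.16 and 0.24.

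**Figure D1:**
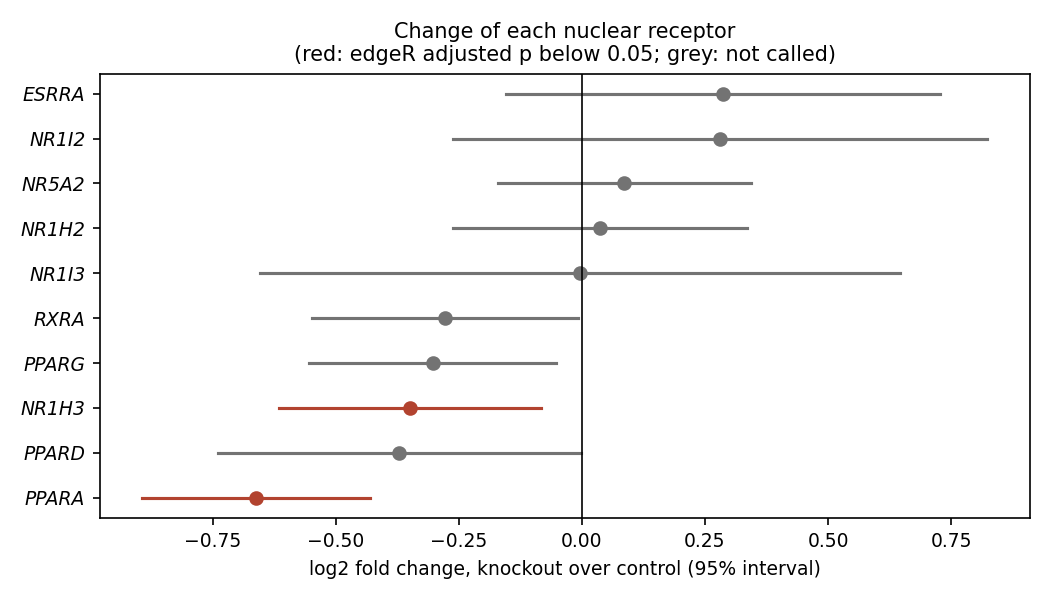
Log2 fold change, knockout over control, of each of the 10 receptors with its 95% confidence interval. ESRRA stands at the top at 0.29 and PPARA at the bottom at -0.66, and the receptors called by edgeR are drawn in red.

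Promoter windows of 3 receptors are shown to set the 2 that were called lower, PPARA and NR1H3, beside NR1I3, which had few counts in both groups. Each is a RefSeq window of GRCh38.p14, from 250 bases before to 50 after an annotated start, on the strand of the gene. PPARA has 2 such windows and the first is shown, and NR1I3 has 1. NR1H3 has 4; the one shown was picked as its only window with AGGTCA, it has no GC box, and 5 GC boxes lie in the others. Capitals mark AGGTCA or the GC box GGGCGG on either strand.
PPARA, chr22:46150276-46150575, plus strand: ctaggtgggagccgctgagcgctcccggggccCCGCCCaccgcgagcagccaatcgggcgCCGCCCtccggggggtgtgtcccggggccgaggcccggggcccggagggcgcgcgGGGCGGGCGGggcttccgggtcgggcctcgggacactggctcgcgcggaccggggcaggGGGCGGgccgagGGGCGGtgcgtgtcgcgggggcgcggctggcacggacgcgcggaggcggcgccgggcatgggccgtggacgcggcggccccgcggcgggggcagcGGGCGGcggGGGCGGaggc
NR1H3, chr11:47248050-47248349, plus strand: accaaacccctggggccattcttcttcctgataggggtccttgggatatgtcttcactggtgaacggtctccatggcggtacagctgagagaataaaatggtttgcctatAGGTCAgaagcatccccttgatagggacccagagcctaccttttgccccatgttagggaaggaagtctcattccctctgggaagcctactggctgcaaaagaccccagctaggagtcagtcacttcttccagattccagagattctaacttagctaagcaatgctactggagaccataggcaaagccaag
NR1I3, chr1:161238154-161238453, minus strand: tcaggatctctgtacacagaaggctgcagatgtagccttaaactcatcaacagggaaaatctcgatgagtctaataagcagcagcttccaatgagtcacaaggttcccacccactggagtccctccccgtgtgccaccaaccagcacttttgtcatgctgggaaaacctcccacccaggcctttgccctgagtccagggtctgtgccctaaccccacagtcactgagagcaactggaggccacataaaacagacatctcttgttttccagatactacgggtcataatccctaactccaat
All 10 receptors matched the table, with 22 windows. GGGCGG was found in 9 of the 22 windows, those of ESRRA, NR1H2, NR1H3, PPARA, PPARD and RXRA, and in 45.0% of the 35116 windows of the whole table. AGGTCA was found in 5 of the 22, those of NR1H3, NR5A2 and PPARG, and in 13.8% of all windows. Windows of a gene can overlap, so a site can be counted more than once. The PPARG windows starting at 12288810 and 12288820 hold the same AGGTCA, and the 2 PPARA windows share GC boxes. The longer motif TCAAGGTCA, which contains AGGTCA, was in 0 of the 22 and 0.353% of all, and 0 of the 22 held AGGTCANAGGTCA or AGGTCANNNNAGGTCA. Both strands were searched, and a match describes letters, not a bound site.

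PPARA, the fatty acid receptor that drives fat burning in fasting liver, had the lowest fold change of the 10. It measured 59.5, 58.9 and 67.5 CPM in knockout replicates 1 to 3, against 99.3, 97.0 and 97.9 CPM in control replicates 1 to 3. Every knockout library lay well below every control library. The means were 62.0 ± 4.81 CPM in knockout and 98.1 ± 1.12 CPM in control (SD, n = 3 each), a log2 fold change of -0.66 ± 0.10 (SE; 95% interval -0.89 to -0.43; edgeR adjusted p = 0.000872), or 1.58-fold lower. The call held under all 17 alternatives tried, with the log2 fold change between -0.73 and -0.48.

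PPARG, best known for fat storage in adipocytes, measured 42.9, 46.7 and 50.4 CPM in knockout libraries, against 57.3, 62.3 and 53.3 CPM in control libraries. The groups did not overlap, but the log2 fold change of -0.30 ± 0.11 did not pass (edgeR adjusted p = 0.0551). It passed without control replicate 3, at -0.38 (adjusted p = 0.0235). PPARD, the widely expressed member of the family, measured 15.4, 19.0 and 14.5 CPM in knockout libraries, against 16.8, 23.2 and 23.2 CPM in control libraries. Knockout replicate 2 exceeded control replicate 1, so the groups overlapped, and the log2 fold change was -0.37 ± 0.17 (edgeR adjusted p = 0.0998). It passed without control replicate 1, at -0.55 (adjusted p = 0.0209).

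**Figure D2:**
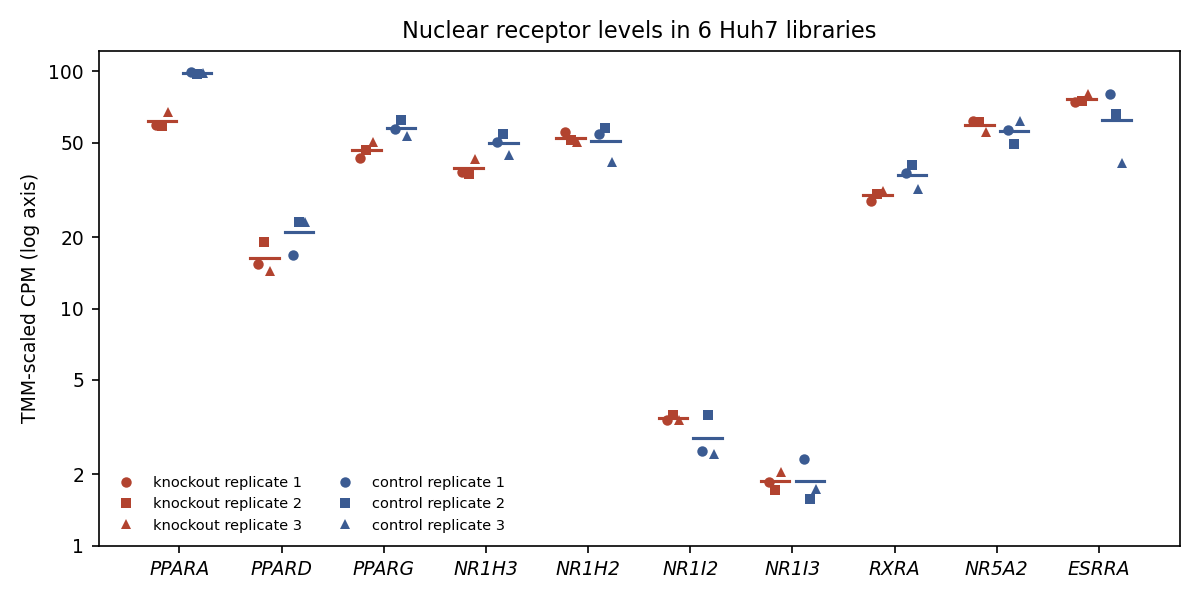
Level of each receptor in CPM in every library, knockout on the left in red and control on the right in blue, with replicates 1 to 3 as circle, square and triangle. The PPARA libraries stand fully apart, while the ESRRA control libraries spread from 41.2 to 80.1 CPM.

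Among the oxysterol receptors, NR1H3, the form most abundant in liver and macrophages, was lower in knockout while NR1H2, the form present in most tissues, was not called. NR1H3 measured 37.5, 37.1 and 42.8 CPM in knockout libraries, against 50.5, 54.6 and 44.4 CPM in control libraries. Its highest knockout library was just below its lowest control library. The log2 fold change was -0.35 ± 0.12 (SE; 95% interval -0.62 to -0.08; edgeR adjusted p = 0.0399), 1.27-fold lower. This call sat close to the threshold. It was lost without knockout replicate 1, 2 or 3 or control replicate 2 (adjusted p = 0.158, 0.161, 0.0553 and 0.0692). Scaling by the upper quartile (0.130) or by library size only (0.283) and cyclic loess (0.102) also ended it. So did leaving out added loci (0.0603) and fitting replicate number as a block (0.0913). The log2 fold change stayed negative throughout. NR1H2 measured 55.4, 51.4 and 50.2 CPM in knockout libraries, against 54.2, 57.5 and 41.4 CPM in control libraries. Its groups overlapped, with a log2 fold change of 0.04 ± 0.13 (95% interval -0.26 to 0.34; edgeR adjusted p = 0.848).

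The drug-sensing receptors had few counts in both groups. NR1I2 had 134, 125 and 121 counts in knockout libraries, against 93, 109 and 73 counts in control libraries. At 3.57 CPM, control replicate 2 exceeded every knockout library (3.38 to 3.56 CPM), and the log2 fold change of 0.28 ± 0.24 (95% interval -0.26 to 0.82) did not pass (edgeR adjusted p = 0.386). NR1I3 had 74, 60 and 73 counts in knockout libraries, against 86, 48 and 52 counts in control libraries. Its group means were both 1.87 CPM, with an interval on the log2 fold change of -0.65 to 0.65 (edgeR adjusted p = 0.993), so changes of up to that size in either direction were not excluded.

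RXRA, the shared partner, measured 28.3, 30.4 and 31.4 CPM in knockout libraries, against 37.1, 40.1 and 32.0 CPM in control libraries. All knockout libraries were below all control libraries, by a narrow margin at control replicate 3. The log2 fold change was -0.28 ± 0.12 (edgeR adjusted p = 0.0927), and it passed without control replicate 3, at -0.38 (adjusted p = 0.0219). Without that library 4 receptors were called lower, PPARA, NR1H3, PPARG and RXRA.

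NR5A2 measured 61.5, 60.9 and 55.4 CPM in knockout libraries, against 56.4, 49.5 and 61.5 CPM in control libraries. The groups overlapped, and the log2 fold change was 0.09 ± 0.12 (95% interval -0.17 to 0.34; edgeR adjusted p = 0.581). ESRRA measured 74.1, 74.7 and 79.9 CPM in knockout libraries, against 80.1, 66.0 and 41.2 CPM in control libraries. Its knockout libraries sat close together and its control libraries did not, with coefficients of variation of 4.18% in knockout and 31.6% in control. Control libraries also differed more from each other over the whole table. Chi-square of the counts per degree of freedom was 53.8 to 83.6 between control libraries and 9.35 to 28.9 between knockout libraries. NR1H2 went the same way (5.17% in knockout, 16.7% in control) and PPARA the other way (7.76% and 1.14%). The ESRRA log2 fold change was 0.29 ± 0.20 (edgeR adjusted p = 0.274), and 0.04 without control replicate 3. In that library ESRRA was 0.83 lower on the log2 scale than the mean of the other control libraries, and its longest transcript has 63.2% GC. NR5A2, at 40.0% GC, was 0.22 higher there, but so was PPARD, at 59.0% GC, while PPARG, at 44.0% GC, was 0.17 lower. Across the 10 receptors this deviation and GC content had Pearson's r = -0.59 and Spearman's rho = -0.72, as a description of genes read in the same libraries. Adding offsets for GC content and length, an alternative chosen after seeing the data, put RXRA at -0.26 (adjusted p = 0.0363) and PPARG at -0.28 (adjusted p = 0.0421), and NR1H3 at -0.20 (adjusted p = 0.0671).

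**Figure D3:**
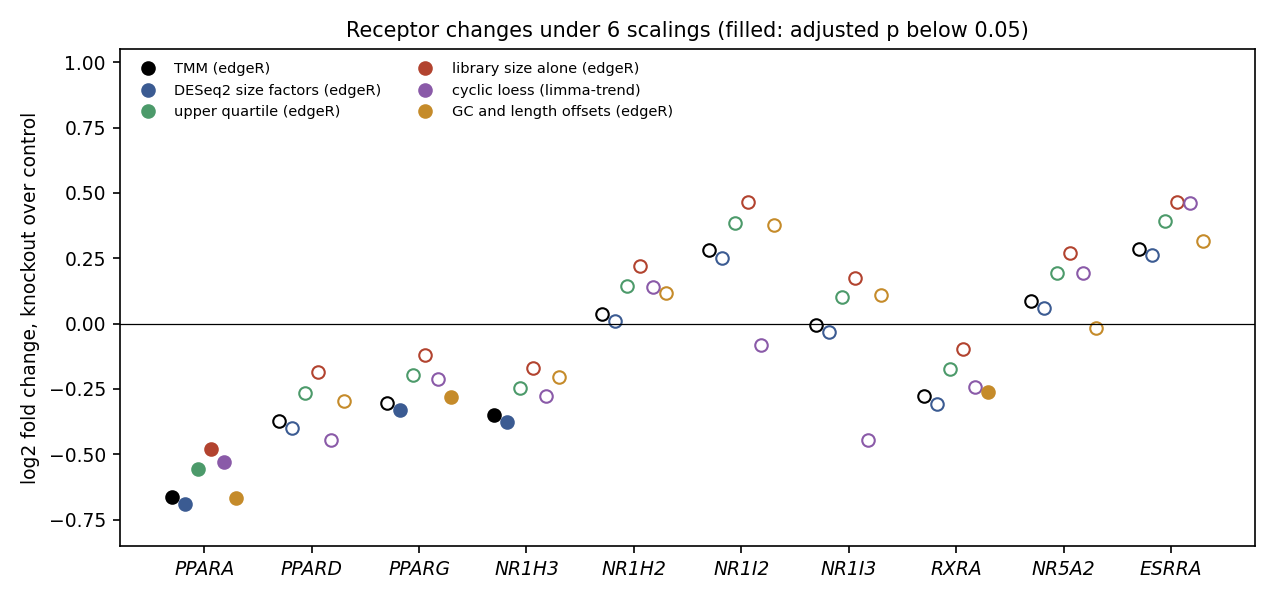
Log2 fold change, knockout over control, of the receptors under different scalings, with filled points for an adjusted p below 0.05. Shown are TMM, DESeq2 size factors, upper quartile, library size alone, and GC and length offsets, all in edgeR, and cyclic loess in limma. PPARA is filled under every setting shown, and NR1H3 moves between filled and open.

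Levels can be ordered between genes only per length. Divided by the longest GENCODE 29 transcript, ESRRA was highest in knockout libraries at 33.4 ± 1.40 CPM per kilobase, followed by PPARG at 23.0, NR1H2 at 22.0, NR1H3 at 14.3, NR5A2 at 11.6, PPARA at 6.20, RXRA at 5.20, PPARD at 4.32, NR1I3 at 1.27 and NR1I2 at 0.779. Of the 9 neighbouring pairs in knockout, the ranges over libraries overlapped for PPARG with NR1H2 and for RXRA with PPARD. In control libraries PPARG led at 28.4 ± 2.22 CPM per kilobase, followed by ESRRA at 27.3, NR1H2 at 21.4, NR1H3 at 18.3, NR5A2 at 11.0, PPARA at 9.81, RXRA at 6.31, PPARD at 5.59, NR1I3 at 1.27 and NR1I2 at 0.642. There 5 of 9 neighbouring pairs overlapped, among them PPARG with ESRRA and ESRRA with NR1H2. The order depends on the gene model. Levels were first ordered by the exon union, and the longest transcript was given the lead after both orders had been seen, because the exon union of the GENCODE basic set gives RXRA 1846 bases, fewer than the 5770 of its longest transcript. Under the exon union RXRA stood directly after ESRRA and NR1H2 in both groups, at 16.3 CPM per kilobase in knockout and 19.7 in control, and PPARG came after it, at 13.6 in knockout and 16.7 in control. NR1I3 and NR1I2 were the lowest under both lengths.

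Ratios of counts within a library do not depend on scaling. PPARG over PPARA was 0.721, 0.792 and 0.746 in knockout libraries, against 0.577, 0.641 and 0.544 in control libraries, a difference of 0.36 in mean log2 ratio. The ratio was higher in every knockout library than in any control library. NR1H3 over NR1H2 was 0.676, 0.721 and 0.852 in knockout libraries, against 0.932, 0.950 and 1.07 in control libraries, a difference of -0.40. RXRB, a second retinoid X receptor, over RXRA was 0.719, 0.744 and 0.672 in knockout libraries, against 0.647, 0.535 and 0.524 in control libraries, a difference of 0.33. These 3 of the 5 ratios tested did not overlap between groups. Over all single rows tested, 54.3% did not overlap, and that share was not computed for ratios. Each of the 3 ratios had a 2-sided exact permutation p = 0.1, the smallest that 3 against 3 libraries allow. Adjusted over the 5 ratios tested, it was 0.167. No ratio can pass 0.05 in this design. PPARD over PPARA (difference 0.30, exact p = 0.4) and NR1I3 over NR1I2 (difference -0.29, exact p = 0.5) overlapped. RXRG had 0 counts in every library.

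**Figure D4:**
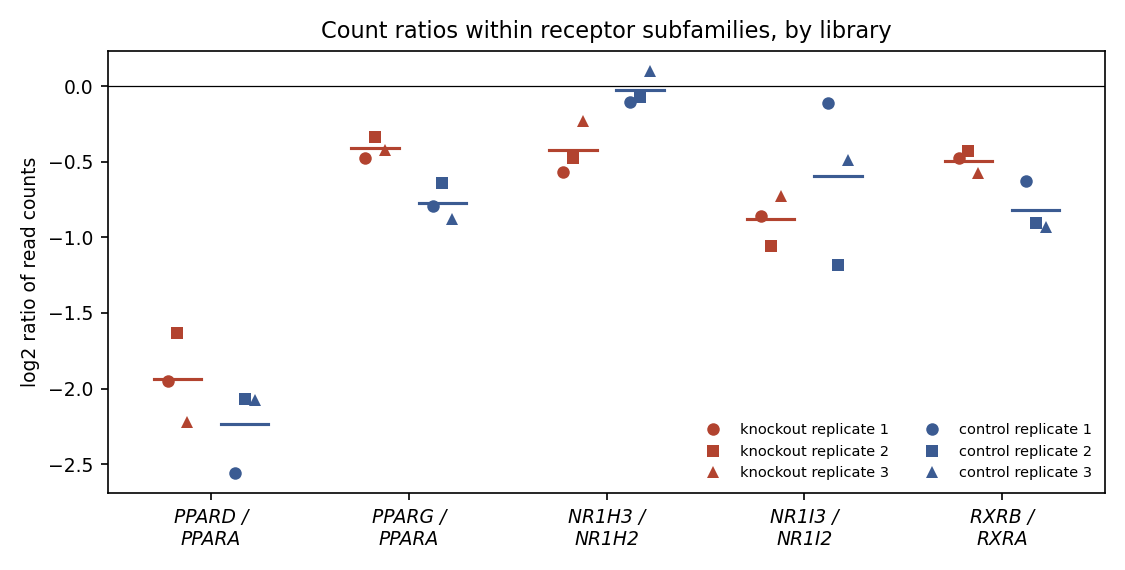
Log2 ratio of counts of 2 receptors of the same subfamily in each library, knockout in red on the left and control in blue on the right. PPARG over PPARA and RXRB over RXRA lie higher in knockout, and NR1H3 over NR1H2 lies lower.

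The table held 38 other nuclear receptor genes. Of the 29 tested, 5 were called higher and 7 lower, 41.4% in all, near the 40.1% of all rows, with a median log2 fold change of -0.11. NR2F1 (COUP-TF1), often a repressor, had 16.2 ± 1.69 CPM in knockout and 52.4 ± 7.06 CPM in control (log2 fold change -1.69 ± 0.14, edgeR adjusted p = 1.83e-05). HNF4A, a central regulator of hepatocyte genes, had 142 ± 4.27 CPM in knockout and 256 ± 20.6 CPM in control (-0.85 ± 0.10, adjusted p = 0.000191). NR3C1, the glucocorticoid receptor, had 49.2 ± 3.10 CPM in knockout and 23.5 ± 3.39 CPM in control (1.07 ± 0.13, adjusted p = 0.000213). Also lower were NR6A1 (-1.08), the clock repressor NR1D1 (-0.94), NR4A1 (-0.60), the bile acid receptor NR1H4 (-0.46) and the thyroid hormone receptor THRA (-0.46). Also higher were the clock repressor NR1D2 (0.76) and the retinoic acid receptor RARB (0.65), and, at few counts, RORA (1.82, adjusted p = 0.0437) and NR0B2 (0.94, adjusted p = 0.0481). Of the 17 alternatives, 11 ended the NR0B2 call and 7 the RORA call, with RORA between 1.37 and 2.89 on leaving out a library. The THRA call ended under 5 (highest adjusted p = 0.114) and the NR1H4 call under 4 (highest 0.114). Among 32 receptors compared over the 6 libraries by Euclidean distance of mean-centred log2 CPM, the nearest to PPARA was HNF4A at 0.329, and the nearest to NR1H3 was PPARG at 0.129.

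Coactivators and corepressors, the proteins that receptors recruit to switch genes on or off, were counted next. Of 18 tested of 19, 1 was called higher and 9 lower, against 21.1% higher and 19.0% lower over all rows, with a median log2 fold change of -0.39 against 0.05. PPARGC1B, a coactivator of ESRRA and PPARA, had 26.0 ± 1.20 CPM in knockout and 56.1 ± 5.25 CPM in control (-1.11 ± 0.11, edgeR adjusted p = 7.68e-05). Its relative PPRC1 had a log2 fold change of -0.93, and the corepressor components TBL1X and HDAC3 had -0.86 and -0.62. The call in the other direction was the coactivator NCOA1, at 0.48. PPARGC1A, the best known of the family, had 8 counts in knockout and 14 in control over 3 libraries each, and was not tested.

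Known target genes of the receptors were counted by receptor, and they also respond to other regulators. Of 30 PPAR targets, 25 were tested, 5 called higher and 11 lower, 64.0% in all against 40.1% of all rows, with a median log2 fold change of -0.26. CREB3L3, a hepatic transcription factor, had 79.1 ± 3.86 CPM in knockout and 246 ± 63.8 CPM in control (-1.64 ± 0.17, edgeR adjusted p = 8.89e-05). Against that direction, CPT1A, which admits fatty acids to mitochondria, had 32.4 ± 1.68 CPM in knockout and 15.6 ± 1.45 CPM in control (1.06 ± 0.12, adjusted p = 0.000145), and the pantetheinase gene VNN1 had 10.2 ± 0.651 CPM in knockout and 1.68 ± 0.538 CPM in control (2.60 ± 0.25).

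Of 17 LXR targets, 14 were tested, 1 called higher and 9 lower, with a median of -0.60. Over all rows 21.1% were called higher and 19.0% lower. The fat synthesis genes SCD and FASN had log2 fold changes of -1.27 and -1.06, the glucose-sensing factor MLXIPL -1.64 and the phospholipid transfer protein PLTP -0.79. The cholesterol exporter ABCA1, a direct LXR target, had -0.59 (edgeR adjusted p = 0.0033). ABCA1 and NCOA1 were picked for mention after their values were seen.

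Of 22 targets of PXR and CAR, 20 were tested, 8 called higher and 5 lower, with a median of 0.36. In all 65.0% of the tested targets were called. Over all rows 40.1% were called, 21.1% higher and 19.0% lower. The efflux pump ABCB1 had 120 ± 10.6 CPM in knockout and 39.9 ± 4.36 CPM in control (1.58 ± 0.12, edgeR adjusted p = 1.42e-05). UGT1A1, whose reads can be shared with other UGT1A genes, had 1.38, and GSTA2, which has close paralogs, had 1.35. CYP1A1, better known as a target of the aryl hydrocarbon receptor, had 338 ± 20.4 CPM in knockout and 778 ± 74.8 CPM in control (-1.20 ± 0.11). CYP3A4, the classic PXR target, had 19 counts in knockout and 0 in control over 3 libraries each, and was not tested.

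NR5A2 targets numbered 16, of which 11 were tested, 1 called higher (NR0B2) and 6 lower, 63.6% in all against 40.1% of all rows, with a median of -0.85. The apolipoprotein gene APOM had 5.67 ± 0.998 CPM in knockout and 22.8 ± 3.32 CPM in control, 4.01-fold lower. APOA1 had a log2 fold change of -1.73, and the HDL receptor SCARB1 had -0.87. APOA1 and HNF4A are also among the hepatocyte markers. Of 23 ESRRA targets, 22 had a row and were tested, 0 called higher (0 also at an unadjusted p below 0.05 in edgeR, 0 in DESeq2's test) and 9 lower, with a median of -0.25. The 40.9% called were thus all lower. Over all rows 40.1% were called, 21.1% higher and 19.0% lower. The mitochondrial enzyme MDH2 had 172 ± 9.93 CPM in knockout and 357 ± 59.8 CPM in control (-1.05 ± 0.13, edgeR adjusted p = 0.000236), and SDHA, SDHB and ATP5F1B had -0.68, -0.67 and -0.66. NR5A2 and ESRRA themselves were not called.

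**Figure D5:**
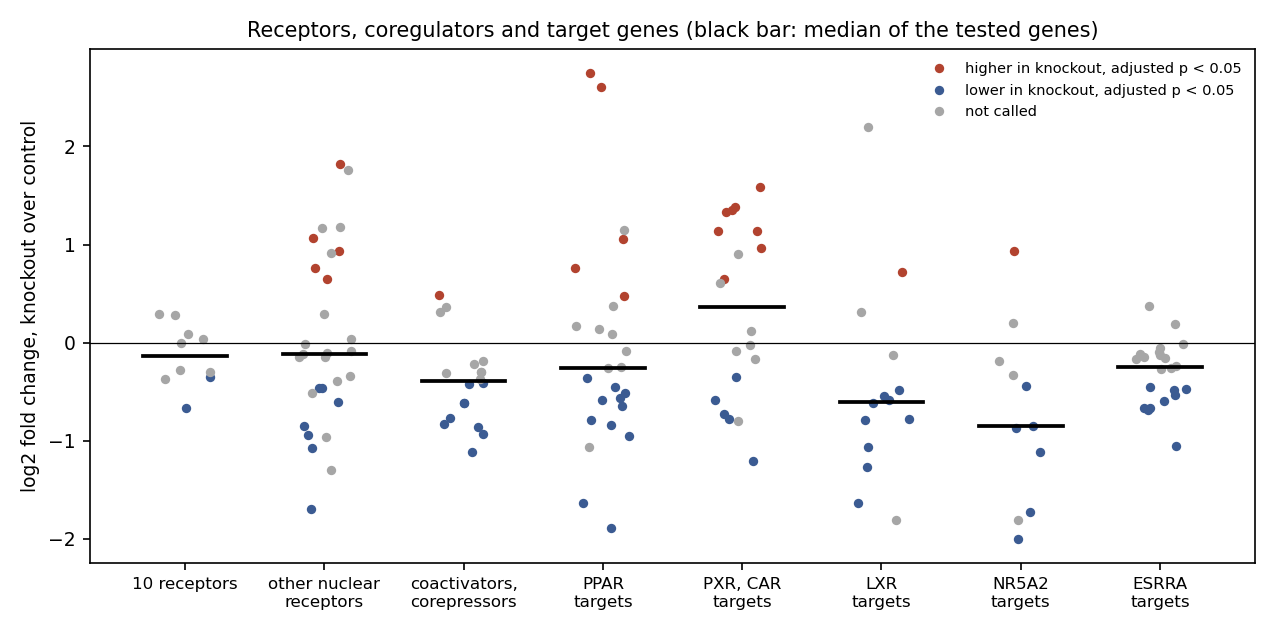
Log2 fold change, knockout over control, of every tested gene of each list, red where called higher, blue where called lower and grey where not called, with a black bar at the median. The medians run from -0.85 for NR5A2 targets to 0.36 for PXR and CAR targets.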

How the data were processed

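mRNA libraries of Huh7 cells were sequenced in 3 knockout and 3 control samples. The deposited table holds raw counts per gene, and the submitters' processing notes name the build hg19; no aligner, annotation or strand setting was stated, so overlapping genes can share reads. It has 25202 rows, of which 5228 are loci with no Ensembl ID and 3195 are 0 throughout. Counts were filtered with filterByExpr, scaled by TMM and tested with edgeR 4.0.16 in R 4.3.3 (common biological coefficient of variation 17.6%). DESeq2 1.42.0 and limma 3.58.1 served as alternatives. Ratios within subfamilies used exact permutation tests. Levels per kilobase used both the longest GENCODE 29 transcript and the exon union. Named genes were HNRNPA2B1, the members, up to 4 called genes with the smallest p in each list, all called receptors and the nearest receptor of each called member; some genes this rule names are not reported here. The members and lists were chosen with earlier results of these data known, so list counts are descriptions. Promoter windows are from RefSeq, and no protein sequence was used here.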

Additional observations from a re-analysis of the deposited data

How the results depend on the processing

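PPARA and HNRNPA2B1 kept direction and call under all 17 alternatives. Calls lower among the 10 receptors, 2 in the report, numbered 1 under upper-quartile scaling, library size alone, cyclic loess, the replicate block and without added loci, and 1 to 4 leaving out a library. NR1H3 was not called at -0.25, -0.17, -0.28, -0.35 and -0.30 (adjusted p = 0.130, 0.283, 0.102, 0.0913 and 0.0603) in that order, nor at -0.20 with GC and length offsets, and ran from -0.45 to -0.29 leaving out a library. PPARG was called at -0.33 with DESeq2 size factors, -0.33 in DESeq2's test and -0.28 with the offsets (-0.38 to -0.25 leaving out a library), and RXRA at -0.26 with the offsets (-0.38 to -0.21). PPARD ran from -0.55 to -0.29. NR1I3 turned positive at 0.10 (upper quartile), 0.18 (library size), 0.0020 (1 CPM filter), 0.012 (replicate block), 0.041 (without added loci) and 0.11 (offsets), and ran from -0.12 to 0.15; NR1I2 turned to -0.083 with cyclic loess, NR5A2 to -0.017 with the offsets (-0.0037 to 0.14) and NR1H2 ran from -0.11 to 0.12. Calls lower over all rows numbered 1878 with library size alone and 2047 to 3439 leaving out a library. Other receptors called higher numbered 3 with cyclic loess and 3 to 4 leaving out a library. Coregulators called higher numbered 3 with upper quartile, library size and cyclic loess, and 0 to 2 leaving out a library. PPAR targets called lower numbered 7 with library size alone. LXR targets called higher numbered 3 with upper quartile, library size and the offsets, 2 with DESeq2's test, voom, cyclic loess and without added loci, and 1 to 2 leaving out a library. NR5A2 targets called higher numbered 0 with DESeq2 size factors, no filter, DESeq2's test, cyclic loess, the replicate block and on leaving out any library. ESRRA targets called higher numbered 1 with library size alone, and called lower 4 with cyclic loess. The causes were not tested. Same-numbered libraries showed no sign of pairing: their deviations correlated at 0.042, -0.071 and -0.073. Such values cannot show how the libraries were prepared, and the labels do not say. With the replicate block, calls over all rows were 3126 higher and 2613 lower. Levels per kilobase were first ordered by the exon union, and the longest transcript was put first after both orders were seen; RXRA and PPARG differed most between the lengths. Counts near 50 to 130 limit NR1I2 and NR1I3, and 3 libraries a group limit every ratio.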
